A study of Drosophila melanogaster with 25 samples.

Results

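RNA recovered with antiserum Gp60 against Su(Hw) from Kc nuclei was set against RNA of Kc input extract. The libraries were taken by their labels, as the 3 Kc Su(Hw) precipitates and the 6 Kc inputs, and made up 9 of the 22 distinct libraries of the study. The study sequenced RNA co-precipitated with Su(Hw) or with Shep in 2 Drosophila cell lines, Kc and BG3, and the labels list 25 samples. Su(Hw) precipitate 2 and input 3 were listed 2 times each, under both sequencing machines, with identical files, and each was counted as 1 library. Kc cells are an embryonic line with properties of blood cells, and BG3 cells come from the larval central nervous system. The labels name no knockdown, transgene or drug for any group. The BG3 comparison used here had 2 Su(Hw) precipitates and 2 inputs, and the Kc Shep precipitates were made with antisera Rb5 (3 libraries), Rb6 (2) and Gp01 (2). All came from nuclear extract cleared with preimmune serum, and polyadenylated RNA was selected before library construction. A mock precipitate was not used here, so what Gp60 recovered was read only against input and against the other antisera.

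Su(Hw) is a zinc-finger protein that binds DNA at the gypsy insulator and at many sites in the genome, where it works with partner proteins in insulator complexes and also in repression of genes. Shep is an RNA-binding protein that was found as a negative regulator of insulator activity in neural tissue. In RNA immunoprecipitation an antiserum pulls a protein from extract, and the RNA that stays with it, bound directly or through partners, is sequenced. A precipitate therefore shows which RNAs make up more or less of the recovered RNA than of the input.

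Counts assigned to genes were 6190633, 46077295 and 42405722 in Su(Hw) 1, 2 and 3 and ran from 8326741 to 44773161 in the inputs. Inputs 1 and 2 and Su(Hw) 1 were sequenced on a GA II machine. Input 3 and Su(Hw) 2 were listed for both machines, and inputs 4 and 5 and Su(Hw) 3 came from a HiSeq with PHRED64 qualities. Input 6 came from a HiSeq with PHRED33 qualities. These 4 classes entered the model. Input 6 stood apart in reads placed at more than 1 position, at 64.1% of its counts against 42.5% in the next input, and Su(Hw) 3 had the highest such share, 69.7%. Replicates differed far beyond counting noise. The labels call them biological replicates without saying what was separate, and p-values measure only the spread between these samples. The haemocyte and neuron markers of the 2 lines carried no symbol among the counted identifiers, so the cell line labels were not checked.

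A gene is called here when its edgeR quasi-likelihood test, adjusted by the Benjamini-Hochberg method over the 9961 tested genes, fell under 0.05. Levels are CPM, gene counts scaled to a common library size with TMM factors, and folds are given on the log2 scale with the SE of the edgeR fit. CPM are not divided by gene length, so a level is compared only with the same gene's level in other libraries. Only 80 of the tested genes had a symbol here, and the other genes are described in groups or by identifier.

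The largest rise at 10 CPM or more belonged to an identifier that has no symbol here, FBgn0003567. It stood at 9.09 CPM in the lowest input, 18.0 at the median and 25.6 in the highest, and at 1043, 2887 and 1401 CPM in Su(Hw) 1, 2 and 3. Every precipitate was thus far above every input. The fold was 6.45 ± 0.42 on the log2 scale, or 87.6-fold (edgeR adjusted p = 2.95e-07). Set against the inputs of its own sequencing class, each precipitate was higher, by 6.11 (GA II), 7.54 (both machines) and 5.94 (HiSeq, PHRED64) on the log2 scale. The next rise was FBgn0000212, also without a symbol, at 21.2, 24.6 and 30.7 CPM in the lowest, median and highest input and at 341, 734 and 499 CPM in the precipitates. The groups again did not overlap, and the fold was 4.32 ± 0.35 (edgeR adjusted p = 1.59e-06). Su(Hw) 2 held most of both RNAs and Su(Hw) 1 least. With HiSeq libraries alone, which left 1 Kc precipitate against 3 inputs, the folds were 5.85 and 4.12 (edgeR adjusted p = 9.69e-05 and 0.0118). With GA II libraries alone, which left 1 against 2, they were 6.00 and 3.94 and were not called (edgeR adjusted p = 0.216 and 0.130).

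FBgn0003567 and FBgn0000212 were high with the same antiserum in BG3 cells too. FBgn0003567 stood at 20.7 and 26.9 CPM in the BG3 inputs and at 583 and 1644 CPM in the BG3 precipitates, a fold of 5.55 ± 0.64. FBgn0000212 stood at 15.7 and 12.9 CPM in the inputs and at 145 and 575 CPM in the precipitates, a fold of 4.66 ± 0.54. Both were called (edgeR adjusted p = 3e-05 and 3.04e-05), and the second BG3 precipitate held more of both. With the Shep antisera in Kc cells FBgn0003567 stood between 6.77 and 31.8 CPM over the 7 libraries, within or near the range of the inputs. Its folds over input were 0.31 ± 0.43 (Rb5), -0.12 ± 0.47 (Rb6) and -0.93 ± 0.49 (Gp01), none called by edgeR (adjusted p = 0.637, 0.875 and 0.192), while these antisera called 29.8%, 29.9% and 20.2% of all genes. FBgn0000212 stood between 14.1 and 42.2 CPM in those libraries, with folds of 0.47, -0.23 and -0.74, and was not called with any of them. Su(Hw) exceeded the mean of the Shep precipitates by 6.70 ± 0.42 for FBgn0003567 and by 4.49 ± 0.36 for FBgn0000212 (edgeR adjusted p = 1.64e-07 and 2.09e-06).

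**Figure D1:**
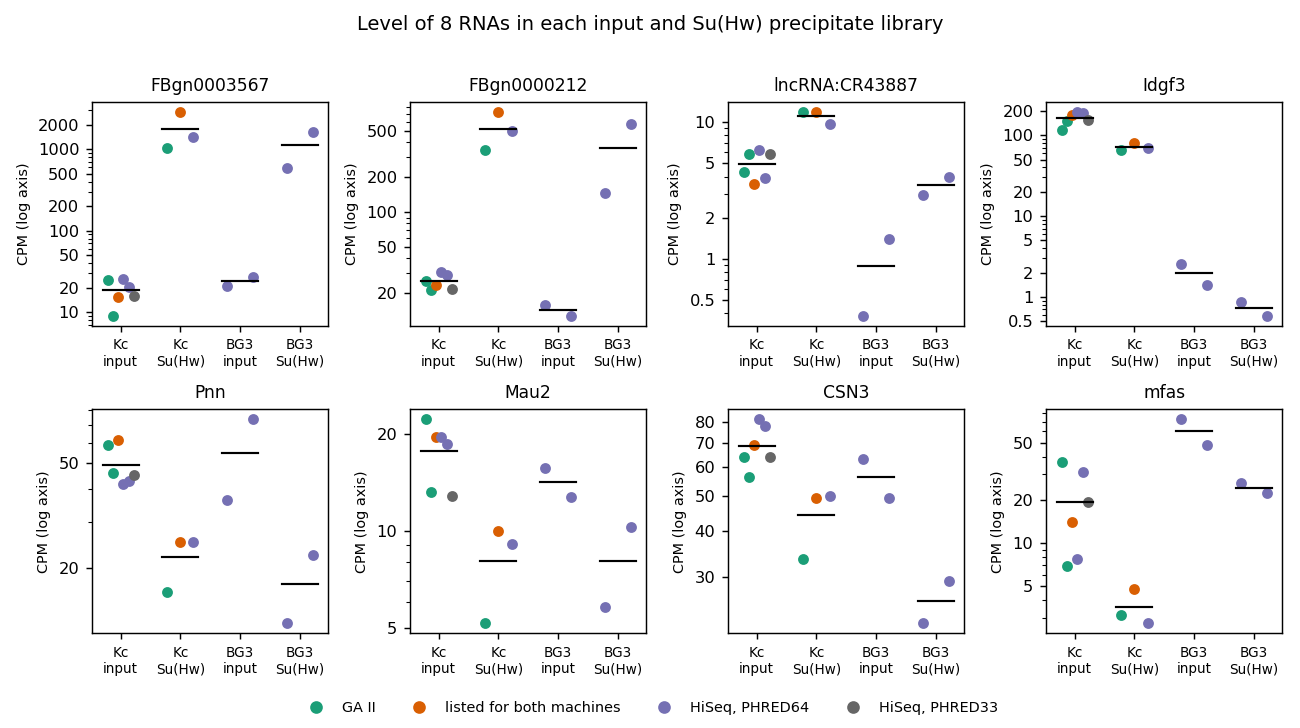
Level in CPM on log axes (1 point per library, coloured by sequencing class; the bar is the group mean) of 8 RNAs in Kc inputs (6), Kc Su(Hw) (3), BG3 inputs (2) and BG3 Su(Hw) (2). FBgn0003567 and FBgn0000212 lie far above the inputs in both lines, and Idgf3, Pnn, Mau2, CSN3 and mfas lie below them in Kc.

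Across all genes the Kc precipitates differed from input in both directions. edgeR called 2412 of 9961 genes (24.2%), 1296 higher (13%) and 1116 lower (11.2%), and the median fold of all genes was 0.11 with quartiles of -0.35 and 0.72. Large folds were mostly rises of RNAs with few reads. A gene with few input reads passes the filter on low counts through the group where it is higher. The excess of large rises is thus not evidence of a direction. Of the called genes 855 rose (8.58%) and 361 fell (3.62%) at least 2-fold, but at 10 CPM or more in 1 of the groups the balance turned to 174 rises and 293 falls. At least 16-fold changes at that level were made by 2 rises, the 2 identifiers above, and 2 falls. All 3 precipitates lay above all 6 inputs for 802 genes (8.05%) and below them for 813 (8.16%), and 609 (6.11%) and 675 (6.78%) of these were called.

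The calls were also described by setting each precipitate against inputs of its own sequencing class, which uses the same libraries that made the calls and is no separate support for them. Of the rises, 96.8% were higher in the GA II class, 99.5% in the class of both machines and 90.3% in the HiSeq class, where 50.2%, 55.1% and 52.3% of all genes were. Rises that were higher in each of the 3 numbered 1129 of 1296 (87.1%, against 30% of all genes), and falls that were lower in each 1107 of 1116 (99.2%, against 25.9%). The number of calls depended on single libraries: leaving out input 3 gave 1237, leaving out Su(Hw) 1 gave 1158 and leaving out Su(Hw) 2 gave 1167. Rises came to 852 when input 1 was left out, 550 for input 3, 624 for Su(Hw) 1 and 521 for Su(Hw) 2. Falls came to 687 when input 3 was left out and to 534, 646 and 657 for the 3 precipitates. edgeR gave 143 calls with the HiSeq libraries and 0 with the GA II libraries, where 812 genes had an unadjusted p under 0.05. Either subset left 1 Kc precipitate, whose spread is then assumed to be that of the other groups. Under upper-quartile scaling, which moved the median of all genes by 0.15 on the log2 scale, 69.5% of calls were rises against 53.7% with TMM.

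**Figure D2:**
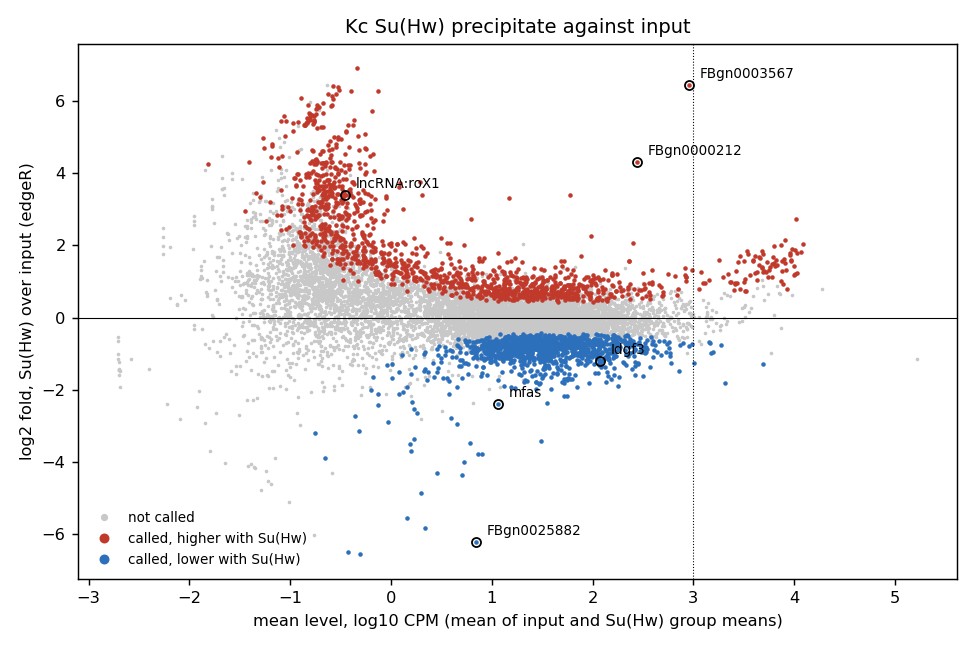
Log2 fold of Kc Su(Hw) over input (edgeR) against the mean level (log10 CPM), 1 point for each of the 9952 tested genes with a count in these libraries, coloured by call. Rises gather at the 2 ends of the range, under 1 CPM and, right of the dotted line, above 1000 CPM, and most falls lie between 10 and 1000 CPM. Under 1 CPM the filter on low counts favours rises.

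More than the usual share of the RNAs with the most counts was higher with Su(Hw) than in input. Genes were put in classes by CPM, which mix the abundance of an RNA with its length. Of the 140 genes with a mean level (over the input and precipitate means) of at least 1000 CPM, 78 were called higher (55.7%, against 13% of all genes) and 8 lower (5.71%). Their median fold was 0.95, and 110 of the 140 were higher in the GA II class, 107 in the class of both machines and 118 in the HiSeq class, with medians of 1.06, 1.03 and 0.86 there. These genes took between 58.7% and 61.5% of gene counts in the inputs and 72.5%, 73.8% and 63.6% in Su(Hw) 1, 2 and 3. Without the gene that had the most counts over all libraries, the shares were 45.0% to 52.6% and 69.6%, 71.3% and 62.0%. Precipitates and inputs did not overlap in either share, although in the first Su(Hw) 3 lay near the highest input (63.6% against 61.5%). The 140 genes were chosen in part by their Su(Hw) levels, which tilts both shares towards the precipitates. The shares were not repeated with classes set by other libraries. When genes were put in classes by the BG3 inputs, which share no library with the comparison, 73 of the 145 genes at 1000 CPM or more were called higher in Kc (50.3%) and 18 lower (12.4%), with a median of 0.81. The median of the 140 genes stayed between 0.77 and 1.10 over 22 other settings, although GA II libraries alone called 0 and HiSeq libraries alone 1 of them.

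With TMM scaling the middle of the range showed the opposite balance. Of 1004 genes from 100 to 1000 CPM, 86 were higher (8.57%) and 198 lower (19.7%), with a median of -0.12. Of 4013 genes from 10 to 100 CPM, 352 were higher (8.77%) and 739 lower (18.4%), with a median of -0.13. Upper-quartile scaling turned the median of that class to 0.01, with 568 higher and 500 lower, so its direction rests on the scaling. The class from 100 to 1000 CPM was not redone under that scaling. Its median was smaller in size than the 0.15 by which the scaling moved the median of all genes. Between 1 and 10 CPM, 232 of 1913 were higher and 159 lower.

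Below 1 CPM calls were almost all rises. From 0.1 to 1 CPM 518 of 2295 genes were higher (22.6%) and 12 lower (0.523%), and under 0.1 CPM 30 of 596 were higher and 0 lower. Here the precipitates differed among themselves: the median of the class from 0.1 to 1 CPM was 1.62 in Su(Hw) 1, 1.12 in Su(Hw) 2 and 0.31 in Su(Hw) 3 over the inputs of their classes. A gene with few input reads passes the filter on low counts through the group where it is higher, so these counts describe the genes that were tested and are not evidence of a direction.

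The Shep precipitates did not share the rise of the RNAs at 1000 CPM or more. The median fold of those 140 genes over the same Kc inputs was -0.80 with Rb5, -0.10 with Rb6 and -0.67 with Gp01. Set directly against the mean of the Shep precipitates, 92 of the 140 were higher with Su(Hw) (65.7%, against 6.7% of all genes) and 2 lower, with a median difference of 1.51. The 140 genes were chosen by their Kc input and Su(Hw) levels and not by a Shep level, which tilts these comparisons away from Shep. Neither was repeated with classes set by other libraries. In BG3 cells 46.4% of the 140 were called higher with Su(Hw) (against 14.5% of all genes), and their median was 1.05.

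**Figure D3:**
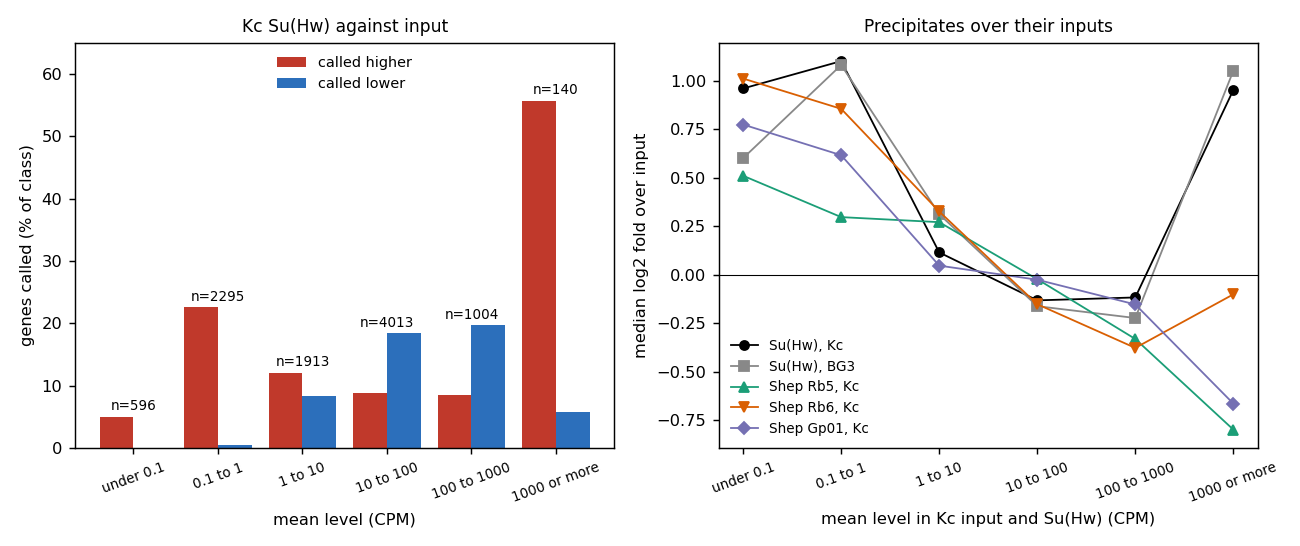
Left, the percentage of genes called higher or lower with Kc Su(Hw) in 6 classes of mean level (n genes above the bars). Right, the median log2 fold over the input of the same line in those classes for Su(Hw) in Kc and BG3 and for 3 Shep antisera in Kc: at 1000 CPM or more the Su(Hw) medians were 0.95 and 1.05 and the Shep medians lay between -0.80 and -0.10.

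On average, reads outside genes were a smaller part of the Su(Hw) precipitates than of the inputs. Counts in no gene took 14.2%, 12.9% and 6.91% of all lines in Su(Hw) 1, 2 and 3 and 14.01% to 34.5% in the inputs, where the median was 25.7%. Only input 6 reached the range of the precipitates. The means were 11.3 ± 3.89% (SD, n = 3) and 26.1 ± 7.63% (n = 6), and an exact two-sided permutation test gave p = 0.0476, where 0.0238 is the smallest possible, and 0.0714 after adjustment over 3 such measures. Within each of the 3 classes that hold a precipitate, the precipitate was lower, with differences of -14.6, -15.4 and -21.4 percentage points. Input 6 has no precipitate in its class and did not enter these differences. With reads placed at more than 1 position left out of the total, counts in no gene took 21.9%, 24.1% and 22.8% in Su(Hw) 1, 2 and 3. In the inputs they then took 37.0% to 54.6%, so the overlap with input 6 depended on the total used. The 10 most counted genes took 21.6%, 23.3% and 14.1% of gene counts in the precipitates and 22.3% to 35.9% in the inputs, which overlapped only at input 2, with the same p values from the exact permutation test (0.0476 and, adjusted, 0.0714). The most counted gene alone took 4.24% to 9.46% in the precipitates and 13.7% to 30.1% in the inputs, so the groups did not overlap. Low shares of these kinds were not particular to Su(Hw). In the 7 Kc Shep libraries counts in no gene took 3.22% to 18.5% of all lines. The 10 most counted genes took 11.7% to 17.2% of gene counts there, and the most counted gene 3.09% to 6.68%. Reads placed at more than 1 position took 50.4 ± 17.7% (n = 3) and 42.9 ± 10.8% (n = 6), which was not a detectable difference (exact permutation p = 0.381).

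Of the 80 tested genes with a symbol, 12 were called higher (15%, against 13% of all genes), 8 lower (10%, against 11.2%) and 60 were not called, shares near those of all genes. The rises and falls lay at different levels, as they did over all called genes. Of the 12 rises 1 reached 10 CPM and 9 were under 1 CPM in the inputs, whereas 7 of the 8 falls reached 10 CPM. Over all genes, 516 of 1296 rises and 945 of 1116 falls had a mean level of at least 10 CPM. Of all rises, 402 were under 0.1 CPM in the inputs and 203 from 0.1 to 1 CPM. The precipitates lay outside the range of the inputs for 5 of the 12 rises and 6 of the 8 falls, beside 47% of all called rises and 60.5% of all called falls. With HiSeq libraries alone 21 of the 23 calls among named genes and identifiers still tested were not made, and with GA II libraries alone the same held for each of the 18 still tested (edgeR adjusted p from 0.0669 to 0.793 and from 0.130 to 0.669). Each subset holds 1 Kc precipitate, so a call not made there says little, and the folds were for example -1.48 and -0.96 for Idgf3, -0.78 and -1.62 for Pnn and -1.03 and -1.70 for Mau2 (HiSeq, GA II).

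Among the falls, Idgf3 (FBgn0020414), which encodes a secreted imaginal disc growth factor related to chitinases, had 114, 165 and 195 CPM in the lowest, median and highest input and 64.6, 80.7 and 69.4 CPM in Su(Hw) 1, 2 and 3. Each precipitate was below each input. The fold was -1.22 ± 0.22 (edgeR adjusted p = 0.00120), and within classes Idgf3 was lower by 1.02, 1.13 and 1.46 (log2). In BG3 cells the level of Idgf3 itself was lower, at 2.56 and 1.42 CPM in the inputs and 0.86 and 0.59 CPM in the precipitates, and it fell there by 1.56 ± 0.39 (edgeR adjusted p = 0.00611). For such a level in pooled extract, less RNA per cell and fewer cells that hold it cannot be told apart. With Shep it was called lower with Rb5 at -1.96 and Rb6 at -2.29 and not with Gp01 at -0.54 (edgeR adjusted p = 0.154).

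Of 41 listed splicing factors only 2, Pnn and Prp31, had a symbol among the tested genes, and both were called lower, beside 11.2% of all genes. Pnn (FBgn0037737), pinin, a nuclear protein of the splicing machinery, stood at 41.9, 45.5 and 61.5 CPM in the lowest, median and highest input. In the precipitates it stood at 16.2, 25.03 and 24.97 CPM, below every input. The fold was -1.19 ± 0.27 (edgeR adjusted p = 0.00543), and in BG3 it was -1.65 ± 0.37 (edgeR adjusted p = 0.00290). Prp31 (FBgn0036487), a U4/U6 snRNP protein, stood at 74.9 ± 18.2 CPM (n = 6) in the inputs and 53.1 ± 12.3 (n = 3) in the precipitates, which overlapped. Its fold was -0.58 ± 0.20 (edgeR adjusted p = 0.0362). That call ended without inputs 1, 3, 4 or 5 or any 1 precipitate (edgeR adjusted p from 0.0512 to 0.142), and also under upper-quartile scaling, with no class, with the compared groups alone and with the stricter filter (0.0509 to 0.137).

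Mau2 (FBgn0038300), a subunit of the cohesin loader, stood at 12.8, 19.1 and 22.2 CPM in the lowest, median and highest input and at 5.16, 9.95 and 9.12 CPM in the precipitates. The groups did not overlap, and the fold was -1.13 ± 0.26 (edgeR adjusted p = 0.00537). In BG3 it was -0.79 ± 0.34 and not called (edgeR adjusted p = 0.0880). CSN3 (FBgn0027055), part of the COP9 signalosome that removes Nedd8 from cullins, stood at 56.4, 66.7 and 81.4 CPM in the inputs and at 33.7, 49.5 and 50.1 CPM in the precipitates. Here too each precipitate was below each input, at -0.69 ± 0.16 (edgeR adjusted p = 0.00643), and BG3 gave -1.12 ± 0.22 (edgeR adjusted p = 0.00120). Nasp (FBgn0037624), a chaperone of histones H3 and H4, was low at 3.60 ± 1.44 CPM (n = 6) and fell to 1.11 ± 0.76 (n = 3), with no overlap. Its fold was -1.52 ± 0.50 (edgeR adjusted p = 0.0331), and -2.27 ± 0.63 in BG3 (edgeR adjusted p = 0.0129). The Kc call of Nasp ended under limma voom (adjusted p = 0.0826) and without inputs 1, 3 or 4 or any 1 precipitate (edgeR adjusted p from 0.0530 to 0.134).

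mfas (FBgn0260745), midline fasciclin, a secreted protein with fasciclin domains, varied more between inputs. It stood at 36.8, 6.97, 13.9, 7.73, 31.1 and 19.3 CPM in inputs 1 to 6 and at 3.14, 4.77 and 2.77 CPM in the precipitates. All precipitates were below the lowest input, and the fold was -2.40 ± 0.69 (edgeR adjusted p = 0.0244). The call ended without input 1, input 3, Su(Hw) 1 or Su(Hw) 3 (adjusted p in edgeR from 0.0512 to 0.129) and with the compared groups alone (0.0676). Aldh (FBgn0012036), a mitochondrial aldehyde dehydrogenase, stood at 589 ± 177 CPM (n = 6) and 422 ± 166 (n = 3), with overlap. Its fold was -0.64 ± 0.22 (edgeR adjusted p = 0.0385). The call ended without inputs 1, 3 or 4 or any 1 precipitate (edgeR adjusted p from 0.0637 to 0.177) and under RLE and upper-quartile scaling, with no class, with the compared groups alone and with the stricter filter (0.0504 to 0.254).

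Among genes at 10 CPM or more in 1 of the groups, the largest 2 falls by identifier varied widely between inputs. FBgn0025882 stood at 2.45, 5.85, 1.60, 5.38, 40.4 and 27.4 CPM in inputs 1 to 6, and had 0, 0 and 13 counts in Su(Hw) 1, 2 and 3. The precipitates together held 13 counts and the inputs 3166, and the ratio of summed counts, scaled by library size, was 0.00792 with an exact 95% interval from 0.00421 to 0.0136 that covers counting error only. The fitted fold was -6.23 ± 1.24 (edgeR adjusted p = 0.00393), and the call ended without Su(Hw) 3 (edgeR adjusted p = 0.0585). FBgn0263471 stood at 2.60, 4.78 and 27.8 CPM in the lowest, median and highest input and at 0.898, 0.133 and 0.527 CPM in the precipitates, below every input. Its fold was -4.01 ± 0.92 (edgeR adjusted p = 0.00789), and the call ended without Su(Hw) 3 (edgeR adjusted p = 0.0923). Both identifiers were also called lower with each Shep antiserum in Kc, at -5.37, -4.73 and -5.78 for FBgn0025882 and -5.11, -3.36 and -4.35 for FBgn0263471 (Rb5, Rb6 and Gp01).

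Among the rises, lncRNA:CR43887 (FBgn0264479), a long noncoding RNA, was the single gene with a symbol at 10 CPM or more. It stood at 3.51, 5.07 and 6.27 CPM in the lowest, median and highest input and at 11.9, 11.8 and 9.73 CPM in the precipitates. The 3 precipitates lay close together above every input. The fold was 1.22 ± 0.34 (edgeR adjusted p = 0.0149). In BG3 cells it stood at 0.38 and 1.39 CPM in the inputs and 2.95 and 3.98 CPM in the precipitates, a fold of 2.01 ± 0.52 (edgeR adjusted p = 0.00793). No Shep antiserum gave a call, at 0.23 (Rb5), 0.68 (Rb6) and 0.56 (Gp01), and its difference from their mean, 0.73 ± 0.35, was not called (edgeR adjusted p = 0.178). The call in Kc ended when input 3, Su(Hw) 1 or Su(Hw) 2 was left out (adjusted p in edgeR from 0.0540 to 0.0758).

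CG13359 (FBgn0025616) stood at 0.944, 3.61 and 5.27 CPM in the lowest, median and highest input and at 11.4, 9.45 and 6.80 CPM in the precipitates, with no overlap. Its fold was 1.42 ± 0.38 (edgeR adjusted p = 0.0127), and the call ended without Su(Hw) 1 (edgeR adjusted p = 0.0790). dyw (FBgn0000092) rose by 1.53 ± 0.28 (edgeR adjusted p = 0.00128) although the groups overlapped, with means of 1.58 ± 1.92 CPM (n = 6) and 2.14 ± 1.17 (n = 3). Input 6 held 5.44 CPM of dyw and the other inputs at most 1.34. Within classes, where input 6 has no precipitate to be set against, the precipitates were higher by 1.32, 1.66 and 1.47 (log2). Without the sequencing class in the model dyw was not called (fold 0.41, edgeR adjusted p = 0.714).

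The other 9 rises among genes with a symbol were of RNAs under 1 CPM in the inputs. Summed over these genes, the inputs held 0.62 to 1.86 CPM and the precipitates 10.8, 6.73 and 4.17 CPM. The genes were chosen for being higher, so the sums show only how the reads were spread over the precipitates, with most CPM in Su(Hw) 1. Genes with few input reads pass the filter through groups where they are higher, so the calls below are not evidence of a direction. lncRNA:roX1 (FBgn0019661), a noncoding RNA of the dosage compensation complex on the male X chromosome, had 0, 1, 1, 0, 2 and 2 counts in inputs 1 to 6 and 3, 35 and 5 in the precipitates. The ratio of summed counts, scaled by library size, was 13.8 (exact 95% interval 5.86 to 39.8, counting error only), and the fold was 3.41 ± 0.84 (edgeR adjusted p = 0.00821). Most of these reads came from Su(Hw) 2, and the call ended without it (edgeR adjusted p = 0.123) or without input 3 (0.0821). roX1 was also called with Shep Gp01, at 3.62 (edgeR adjusted p = 0.0106), and not with Rb5 or Rb6.

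Pde1c (FBgn0264815), a phosphodiesterase of cyclic nucleotides, had 1, 0, 1, 1, 2 and 2 counts in the inputs and 6, 24 and 5 in the precipitates, a ratio of 9.65 (4.22 to 25.7). Its fold was 3.41 ± 0.73 (edgeR adjusted p = 0.00334), and the call held in each fit that left out 1 library. Within classes it was higher by 4.0 (GA II), 3.4 (both machines) and 1.0 (HiSeq, PHRED64) on the log2 scale. With HiSeq libraries alone, which left 1 Kc precipitate, the fold was 1.68. PsGEF, a guanine nucleotide exchange factor, had 14 counts in the inputs and 37 in the precipitates, a ratio of 5.10 (2.69 to 10.2). sqa, a kinase acting on myosin light chain, had 8 and 20 counts, a ratio of 4.82 (2.04 to 12.7). mGluR, the metabotropic glutamate receptor, had 58 and 67 counts, a ratio of 2.23 (1.54 to 3.23). For these 3 genes the precipitates overlapped the inputs.

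The calls of those 3 genes rested on single libraries. That of PsGEF (edgeR adjusted p = 0.00789) ended without input 3, Su(Hw) 1 or Su(Hw) 2 (0.0503 to 0.0572), and that of sqa (0.0187) without the same libraries (0.0534 to 0.169). That of mGluR (0.0310) ended without inputs 1, 3 or 4 or Su(Hw) 1 or 2 (0.0540 to 0.235) and under limma voom, with no filter, with no class and with the compared groups alone (0.0514 to 0.0689).

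CG17666, CG33978, CG45081 and CG10073 had 6, 20, 9 and 120 counts in the inputs and 25, 44, 16 and 122 in the precipitates. The ratios were 8.04 (3.22 to 23.96) for CG17666, 4.25 (2.45 to 7.60) for CG33978, 3.43 (1.43 to 8.81) for CG45081 and 1.96 (1.51 to 2.55) for CG10073. All 4 were called (edgeR adjusted p = 0.0209, 0.0191, 0.0286 and 0.0110), and each call ended without at least 1 library. CG33978 had 17 of its reads in Su(Hw) 1, the precipitate with the fewest counts, and its call ended without it (0.175) and without input 3 (0.0879). The call of CG17666 ended without input 3, Su(Hw) 2 or Su(Hw) 3 (0.0760 to 0.133) and that of CG10073 without Su(Hw) 2 (0.0590) or with no class (0.161). That of CG45081 ended without input 3, input 6, Su(Hw) 1 or Su(Hw) 3 (0.0584 to 0.263), under DESeq2 (0.0663), with no filter (0.0785) and with no class (0.0535).

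Of the 60 genes with a symbol that were not called against Kc input, LanA (FBgn0002526), the laminin alpha chain of basement membranes, lay nearest the threshold. It stood at 412, 579.5 and 735 CPM in the lowest, median and highest input and at 654, 767 and 1056 CPM in the precipitates, which overlapped. Its fold was 0.54 ± 0.20 (edgeR adjusted p = 0.0520). Of 22 other settings 7 made the call and 15 did not. It was made under RLE and upper-quartile scaling, DESeq2, the stricter filter and the replicate block (adjusted p from 0.0176 to 0.0427), and without input 2 or 4 (0.0231 and 0.0492). Over the fits that left out 1 library the LanA fold lay between 0.39 and 0.65 (edgeR adjusted p from 0.0231 to 0.301). In BG3 cells its fold was 0.98 ± 0.28 (edgeR adjusted p = 0.0143), a call that ended without BG3 input 1, BG3 input 2 or BG3 Su(Hw) 1 (0.0621 to 0.136), with no filter (0.0745) and with the compared groups alone (0.128).

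**Figure D4:**
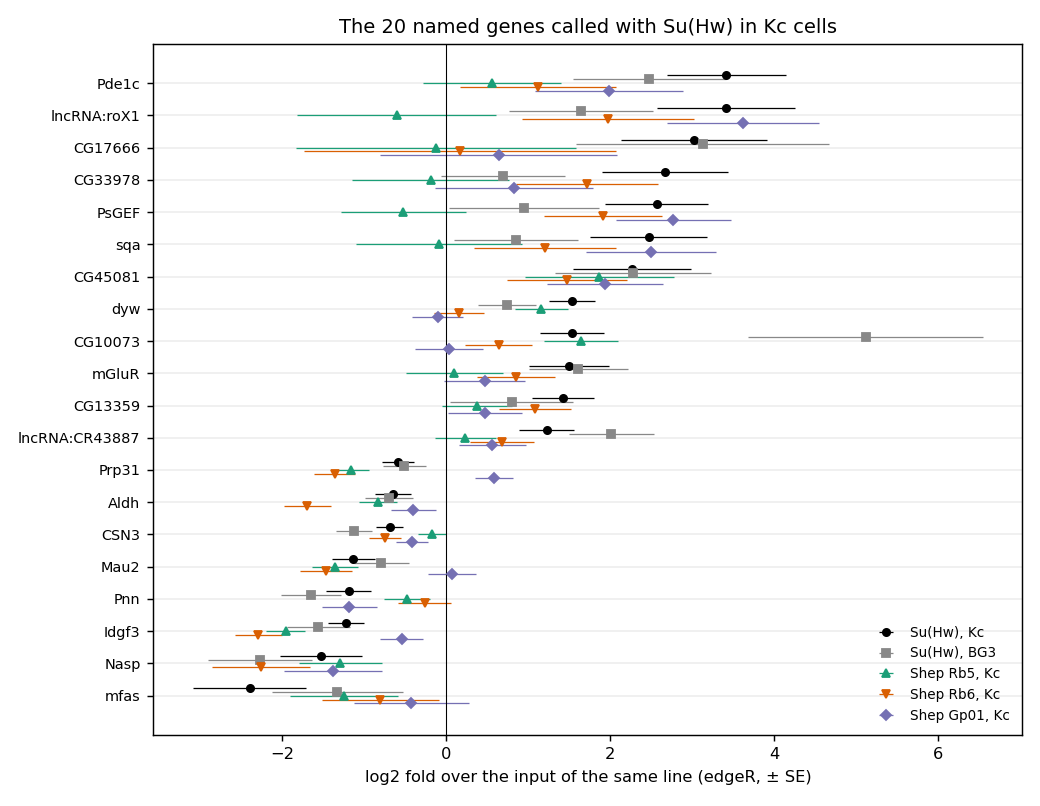
Log2 folds over the input of the same line (points, edgeR; bars, SE) for the 20 genes with a symbol that were called with Su(Hw) in Kc, shown for Su(Hw) in Kc and BG3 and for 3 Shep antisera in Kc. Bars are wide for the rises at the top, which rest on few reads, and CG10073 had no count in the BG3 inputs, so its BG3 point depends on the prior count.

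The same antiserum was used in BG3 cells with inputs of that line, so the groups set against each other there shared no library with those in Kc. Both comparisons came from 1 fit over all 22 libraries, with a shared spread, filter and class terms. The 2 sets of calls are therefore not independent. Fitted with the compared groups alone, edgeR called 838 genes in BG3 and 1539 in Kc. In the joint fit it called 2740 genes in BG3 (27.5%), 1447 higher and 1293 lower, and 1506 without BG3 input 1 or 1369 without BG3 Su(Hw) 1. Of the calls, 710 genes fell in both lines (63.6% of Kc falls, 54.9% of BG3 falls) and 513 rose in both (39.6% of Kc rises, 35.5% of BG3 rises). Over all tested genes, 11.2% fell and 13% rose in Kc, and 13% fell and 14.5% rose in BG3. Of the 5157 genes at 10 CPM or more in Kc, edgeR called 945 lower and 516 higher in Kc and 1093 lower and 683 higher in BG3. At that level 634 fell in both (67.1% and 58% of the falls in Kc and BG3) and 289 rose in both (56% and 42.3% of the rises). Whether falls and rises differ in these shares was not tested. Calls in opposite directions were few, 11 genes higher in Kc and lower in BG3 and 16 the reverse. Across the 5157 genes at 10 CPM or more in Kc, folds of the 2 lines correlated at r = 0.70 (Spearman rho = 0.73), and across all 9961 at 0.47 (rho = 0.60). These are correlations across genes, which are not independent replicates, and all BG3 libraries share a sequencing class with only 1 Kc precipitate. Among genes with a symbol, Idgf3, Pnn, CSN3 and Nasp were called lower in both lines and lncRNA:CR43887 and CG10073 higher in both, the last without a read in the BG3 inputs.

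The BG3 calls of these genes, with 2 libraries a group, rested on single libraries, except that of CSN3. That of Idgf3 ended without BG3 input 1 or BG3 Su(Hw) 2 (edgeR adjusted p = 0.101 and 0.0945). Those of Pnn and Nasp ended without BG3 input 2 or BG3 Su(Hw) 1 (0.0589 and 0.0509 for Pnn, 0.116 and 0.119 for Nasp). That of lncRNA:CR43887 ended without BG3 input 1, where the fold was 1.34, or BG3 Su(Hw) 2 (0.108 and 0.0514), and that of CG10073 without BG3 input 1, BG3 input 2 or BG3 Su(Hw) 1 (0.0729 to 0.115) and with no class (0.0844). With the compared groups alone Idgf3, Pnn, CSN3, Nasp and lncRNA:CR43887 were not called in BG3 (edgeR adjusted p from 0.0552 to 0.148).

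**Figure D5:**
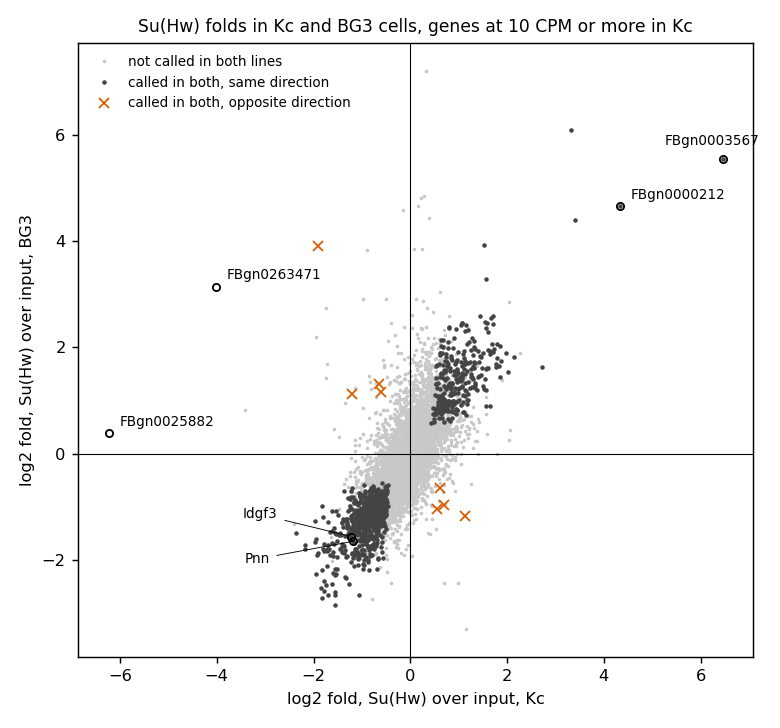
Log2 fold of Su(Hw) over input in BG3 against that in Kc (edgeR), 1 point for each gene with a mean level of 10 CPM or more in Kc. Genes called in both lines in the same direction (dark) lie along the diagonal, and circled are 6 genes of the text, of which FBgn0025882 and FBgn0263471 lie below that level.

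The difference between the lines, tested as Kc enrichment minus BG3 enrichment, was called for 258 genes (2.59%). It was higher in Kc for 57 (0.572%), of which 42 fell in BG3, and lower in Kc for 201 (2.02%), of which 184 rose in BG3 and 33 fell in Kc. FBgn0263471 went opposite ways: in BG3 it rose from 1.24 and 2.81 CPM in the inputs to 26.9 and 9.17 CPM in the precipitates. That was a fold of 3.14 ± 0.88 (edgeR adjusted p = 0.0168) against -4.01 in Kc, and the difference was -7.16 (edgeR adjusted p = 0.00938). The call in BG3 ended without BG3 input 1 or BG3 Su(Hw) 1 (edgeR adjusted p = 0.147 and 0.149) and with no class (0.0732), and that of the difference without BG3 input 1 (0.0856). With HiSeq libraries alone, which left 1 Kc precipitate, the BG3 fold was 3.06 and the difference -7.66, neither of them called. No gene with a symbol at 10 CPM or more had a called difference. Single libraries moved the count of differences: it was 124 without Kc input 3, 152 without Kc Su(Hw) 1, 127 without Kc Su(Hw) 2, 44 without BG3 input 1, 166 without BG3 input 2, 89 without BG3 Su(Hw) 1 and 430 without BG3 Su(Hw) 2.

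A direct contrast of Kc Su(Hw) with the mean of the 3 Shep groups, in which inputs entered only through the shared class terms and spread, called 1263 genes (12.7%), 667 higher with Su(Hw) (6.7%) and 596 lower (5.98%). Of these, 336 and 198 differed at least 2-fold. Each Shep group weighed the same, and the Su(Hw) antiserum and its protein cannot be told apart in it. Among genes with a symbol 4 were higher (5%) and 3 lower (3.75%). LanA was higher with Su(Hw) by 0.91 ± 0.20 (edgeR adjusted p = 0.00637), at 654 to 1056 CPM against 318 to 696 CPM in the 7 Shep libraries. Its folds over input were -0.19, -0.32 and -0.60 with Rb5, Rb6 and Gp01.

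CG5793 (FBgn0038858) was higher by 0.94 ± 0.22 (edgeR adjusted p = 0.00944), at 69.4, 54.0 and 35.9 CPM against 15.2 to 40.9 CPM with Shep. Ts (FBgn0024920), thymidylate synthase, was lower with Su(Hw) by 1.04 ± 0.26 (edgeR adjusted p = 0.0125), at 97.6, 99.8 and 100.2 CPM against 96.4 to 305 CPM. CG8516 (FBgn0037757) and CG4570 (FBgn0037844) differed by -0.80 ± 0.21 and -0.82 ± 0.26 (edgeR adjusted p = 0.0151 and 0.0414). These differences were mixtures of both sides, since Ts stood at -0.64 over input with Su(Hw), not called (edgeR adjusted p = 0.0668), and at 0.85 with Rb5. dyw and Pde1c, both under 10 CPM, were higher by 1.13 and 2.19 (edgeR adjusted p = 0.0104 and 0.0436).

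The calls against Shep rested on few libraries. LanA, CG5793 and Ts lost theirs without Su(Hw) 3 (edgeR adjusted p = 0.0951, 0.0521 and 0.109) or Shep Rb6 1 (0.0611, 0.0622 and 0.0622). CG8516 lost its call without Su(Hw) 1, Su(Hw) 2 or Shep Rb6 1 (0.0722 to 0.101) and with no class (0.0711), and CG4570 without any 1 Su(Hw) library and without 6 of the 7 Shep libraries (0.0526 to 0.148). The calls of dyw and Pde1c ended without single libraries as well (0.0551 to 0.0831 and 0.0549 to 0.190). The count of 1263 fell to 712, 641 and 739 without Su(Hw) 1, 2 and 3, to 704 without Shep Gp01 1 and to 517 without Shep Rb6 1.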

How the data were processed

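Raw read counts per FBgn identifier were deposited by the authors, as a table for every sample. Per the submitters' processing notes, build dm3 was used with HTSeq, TopHat2, Bowtie2, DESeq and cutadapt 1.2.1. The annotation release and the strand setting of counting are not stated there or in the labels. Without strand, reads of overlapping and antisense genes cannot be told apart. Lines that name no gene entered neither library sizes nor tests. In the Kc inputs and Su(Hw) precipitates, reads placed at more than 1 position held 35.0% to 69.7% of the counts of all lines, reads in no gene 6.91% to 34.5% and ambiguous reads 0.452% to 1.01%.

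Of 16037 identifiers, 9961 passed edgeR's filter (minimum count 10, minimum total 15). edgeR 4.0.16 (limma 3.58.1, R 4.3.3) was fitted over all 22 distinct libraries with TMM scaling, group means, a covariate for sequencing class and the robust quasi-likelihood test and Benjamini-Hochberg adjustment at 0.05. Within-class differences used log2 CPM with a prior count of 2. Exact intervals of count ratios are at 95% and cover counting error only. Alternatives were RLE and upper-quartile scaling, DESeq2 1.42.0, limma voom, no filter, a stricter filter (at least 10 CPM over all libraries), no sequencing class, a replicate block, the compared groups alone, HiSeq or GA II libraries alone, FBgn0003567 left out and each library left out in turn. Leaving out the gene with the most counts was added after seeing the data. The model was tested on simulated data.

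The RefSeq gene table that gave symbols is of another assembly, GCF_000001215.4, used for names only, which paired 172 identifiers (1.07%). Of 28 gene lists, 4 had a tested member with a symbol: sex and dosage RNAs (roX1, called higher), splicing factors (Prp31 and Pnn, both lower), secreted and basement membrane (Idgf3, lower, and LanA, not called) and Polycomb and trithorax (Asx, not called at 0.39 ± 0.33). Named genes were the largest changes with a symbol among called genes at 10 CPM or more with all precipitates on 1 side of all inputs (conditions met by 327 rises and 606 falls, with a symbol by 1 and 5). The rule also named the 2 largest changes each way by identifier, FBgn0003567, called list members, and the 5 largest each way between lines and against Shep. The other genes were named after their values were seen. The comparison, the members and the lists were chosen with earlier results of these data known. Checks of GC content and length were void, because too few genes have a value.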

Additional observations from a re-analysis of the deposited data

Results flagged for a closer look

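Values were compared within the 6 Kc inputs for 38 measures, and 5 had 1 library far from the rest. Chance sets apart about 1 in 20 such groups. Input 6 held 5.44 CPM of dyw, with the next input at 1.34, and 64.1% of its counts were reads placed at more than 1 position, with the next input at 42.5%. Input 1 held the highest level of CG17666 (0.189 CPM, next 0.0491) and of PsGEF (0.377 CPM, next 0.124), and the lowest of Mlp60A (0.189 CPM, next 0.467). These levels in input 1 rest on 2 to 4 counts.

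Among the genes and identifiers named here, 3 differed in Su(Hw) enrichment between Kc and BG3 by an edgeR test of the difference itself. That test called 258 of the 9961 tested genes (2.59%). FBgn0263471 differed by -7.16 (log2; edgeR adjusted p = 0.00938). FBgn0025882 differed by -6.62 (edgeR adjusted p = 0.0398), at -6.23 in Kc and 0.39 in BG3, where it stood at 8.57 and 6.74 CPM in the inputs and 16.8 and 3.90 CPM in the precipitates. That call ended under limma voom (adjusted p = 0.176), with no class, with the compared groups alone and in 10 of the 13 fits that left out 1 library (edgeR adjusted p from 0.0517 to 0.163). Mlp60A, a muscle LIM protein gene, differed by -5.70 ± 1.201 (edgeR adjusted p = 0.0142). It stood at 0.471 ± 0.147 CPM (n = 6) in the Kc inputs and 0.727 ± 0.172 (n = 3) in the Kc precipitates, a fold of 0.55 that was not called. In BG3 it stood at 0.0550 and 0 CPM in the inputs and 4.76 and 0.617 CPM in the precipitates, so its BG3 fold rests on inputs almost without reads. The call of the difference ended under limma voom (adjusted p = 0.0722), with the compared groups alone (0.0736), with HiSeq libraries alone (0.149) and without BG3 input 1, BG3 input 2 or BG3 Su(Hw) 1 (edgeR adjusted p from 0.0582 to 0.0983), where it lay between -8.98 and -3.68.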

How the results depend on the processing

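Over 22 other settings the calls of the Kc comparison ranged from 0 to 2711 (2412 reported). The stricter filter gave 1543 (768 higher), over fewer genes. The replicate block gave 1434 (702 higher, 732 lower), of which 1249 were among the 2412. Same-numbered Kc samples did not resemble each other most: over 5157 genes, deviations of same-numbered inputs and precipitates from their group means correlated at -0.327, -0.174 and -0.316. No precipitate correlated best with its own number among inputs 1 to 3 (Su(Hw) 1 with input 2 at 0.388, Su(Hw) 2 with input 3 of its class at 0.544, Su(Hw) 3 with input 1 at 0.386). The other inputs were not compared, deviations from a shared mean are not independent, and a shared class cannot be told apart from pairing. Whether the numbers pair the Kc samples is thus not known. In BG3 the same-numbered pairs correlated at 0.548, with only 2 pairs. The compared groups alone gave 1539 (636 higher, 41.3%), HiSeq libraries alone 143 (62 higher, 81 lower) and GA II libraries alone 0 (0 higher, 0 lower; 812 at an unadjusted p under 0.05), with fewer samples. Leaving out 1 library gave 1158 to 2532 calls, 521 to 1279 higher and 534 to 1253 lower. Calls in BG3 (2740) were 1783 with no class, 838 with the compared groups alone and 1369 to 2873 without 1 library. Differences between lines (258) were 589 under DESeq2, 91 under limma voom, 462 with no filter, 147 with the stricter filter, 155 with no class, 396 with the block, 78 with the compared groups alone, 25 with HiSeq libraries alone and 44 to 430 without 1 library. Calls against Shep (1263) were 2398 with the block and 517 to 1271 without 1 library; no platform subset was fitted, since the subsets leave out libraries listed for both machines, and Rb5 then has no HiSeq library and Rb6 and Gp01 no GA II library. Leaving out 1 library moved the difference in counts in no gene between -17.2 and -12.5 percentage points (exact permutation p from 0.0357 to 0.143), that of the 10 most counted genes between -11.0 and -6.41 and that of reads at more than 1 position between -2.14 and 15.2; the sign turned without Su(Hw) 3. The difference of dyw from Shep turned to -0.0556 with no class and to -0.0552 with the block. Where no reason is given, the cause was not tested. Su(Hw) 1, with 6190633 gene counts, limits what can be read at low levels.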
